A study of Mus musculus with 6 samples.

Results

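The genes of bone morphogenetic protein (BMP) and transforming growth factor beta (TGF-beta) signalling were compared between wild-type and Wt1 knockout urogenital ridges. The members were taken by gene name, and the names were chosen with earlier results of these data known. They were every probe with a single gene symbol of the form Bmp, Gdf or Smad and a number, except myostatin under its old name Gdf8, and the ligands, antagonists and targets Tgfb1, Tgfb2, Tgfb3, Inha, Inhba, Inhbb, Nodal, Lefty1, Id1, Id2, Id3, Id4, Chrd, Grem1, Fstl1 and Fstl3. Nog and Bambi were also asked for, but no probe carried either symbol in the annotation used. This gave 41 probes for 39 genes, out of 20289 probes and 13769 named genes on the array. Bmp2k came in by its symbol although it encodes a kinase, and Bmp1 encodes a metalloprotease, so neither is a ligand.

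Ridges were taken from Mf1 mouse embryos at E11.5 (embryonic day), with 11 to 12 tail somites, a stage that precedes the divergence of the sexes. The wild-type group was Mf1 without the mutation, and the knockout group was Mf1 homozygous for deletion of the Wilms tumour gene Wt1 (Wt1-/-), which encodes a zinc finger transcription factor. There were 6 single-colour arrays, 3 per genotype, and the RNA on each came from 5 pooled embryos, of which 4 were female and 1 was male. Whether the arrays of one genotype carry RNA of different pools is not stated, and every p-value therefore reflects array-to-array spread alone, part or all of which may be technical.

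TGF-beta superfamily ligands are secreted dimers that bind pairs of serine/threonine kinase receptors. BMP and some GDF ligands lead to phosphorylation of Smad1, Smad5 and Smad9, whereas TGF-beta, activin and Nodal act through Smad2 and Smad3. Both sets join Smad4 and enter the nucleus, where Smad6 is a feedback target and inhibitor of the BMP branch and the Id genes are direct BMP targets. In the ridge, BMP4 is known for its part in duct budding and early gonad growth, and the inhibin alpha subunit marks gonadal somatic cells.

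Values are deposited spot intensities on a linear scale in which the median of each array was between 0.956 and 0.966. They carry no detection flag. A probe was tested if its mean over the arrays lay above an intensity of 0.217, the 25th percentile of probe means, which left 15062 probes. These means were taken on the log2 scale, after low values were raised to a floor. On the brighter of its probes Wt1 read 44.1, 43.6 and 39.1 in wild type and 14.3, 15.7 and 14.2 in knockout, and the position of that probe relative to the deletion is not given in the sources used here. Defining genes of the ridge were present in wild type, with Lhx9 at 4.23 ± 0.218, Emx2 at 6.12 ± 0.437 and Tcf21 at 19.7 ± 0.159 (SD, n = 3 each), whereas Pax8, Sim1, Emx1 and Msln were too dim to be tested.

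Cell type markers, in lists chosen with earlier results of these data known, moved between the same arrays. The counts below stand beside 17.2% lower and 24.1% higher of all tested probes. Of the coelomic epithelium and gonad markers, 7 of 12 tested were lower in the knockout and 1 was higher, and their summed intensity was 108 to 111 on wild-type and 75.5 to 76.7 on knockout arrays. Amhr2 made most of that difference (30.6 to 0.480), and without it the sums were 78.5 to 79.0 and 75.0 to 76.3. Gata4, Upk1b, Krt18 and Bnc1 did not pass, and Tcf21 was the one that was higher. Of the endothelial markers, 5 of 7 were lower and 1 higher, with sums of 78.0 to 79.9 and 75.8 to 76.0, or 47.2 to 47.5 and 37.2 to 39.6 without Kdr, the one that was higher. Higher in the knockout were 8 of 11 muscle and somite markers (1 lower, sums of 59.1 to 61.9 and 68.8 to 75.4), 8 of 10 neural crest and neuron markers (sums of 24.4 to 26.2 and 56.2 to 57.7), 3 of 5 spinal cord markers (sums of 19.3 to 21.3 and 47.5 to 50.2) and 3 of 5 mesonephros markers (sums of 25.6 to 26.8 and 32.9 to 35.4). The spinal cord and mesonephros sums each turn on 1 gene. Without Zic1 the spinal cord sums were 17.8 to 19.8 and 17.5 to 21.4, and without Gata3 the mesonephros sums were 16.1 to 17.4 and 16.5 to 17.7. Of the other lists, liver and gut had 2 higher and 2 lower of 7 tested, macrophage 1 higher of 4 and erythroid none of 4. No marker was at 0 on every array. In whole tissue, fewer cells of a type and less RNA per cell cannot be told apart, and the part of tissue makeup in the changes below was not tested.

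Of the 39 member genes, 35 had a probe bright enough to be tested. The brightest probe represents each gene, and a change passed at an adjusted p under 0.05 in limma. In the knockout 11 genes were lower (Inha, Id1, Tgfb1, Smad6, Smad1, Bmp2, Smad2, Bmp4, Smad4, Id2 and Fstl1), 5 were higher (Gdf5, Grem1, Nodal, Id3 and Gdf9) and 19 did not pass. Cyclic loess normalization gave 11 lower and 3 higher, beside 20.1% and 19.7% of all probes. The 5 higher genes became 1 without wild-type array 1, 2 without wild-type array 3 or knockout array 2, and 3 without wild-type array 2 or knockout array 1. Of all tested probes 18.9%, 18.7% and 18.9% were higher without wild-type arrays 1, 2 and 3. The share was 28.2% without knockout array 1 and 21.2% without knockout array 2. Counted over the 36 member probes tested, 44.4% passed, close to the 41.3% of all tested probes. The split by direction was 30.6% lower and 13.9% higher, beside 17.2% lower and 24.1% higher across the array. A decrease of at least 1.5-fold was seen at 6 of the 36 probes, 16.7% beside 8.68% of all probes, and an increase of that size at 1 of 36, 2.78% beside 6.83%. At 19 of the 36 member probes (52.8%) all arrays of one genotype lay above all arrays of the other, beside 52.8% of all tested probes. The median log2 change was -0.20 over the 35 genes and 0.09 over all tested probes. Without wild-type array 1 it was -0.08 and without knockout array 3 it was -0.07.

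**Figure D1:**
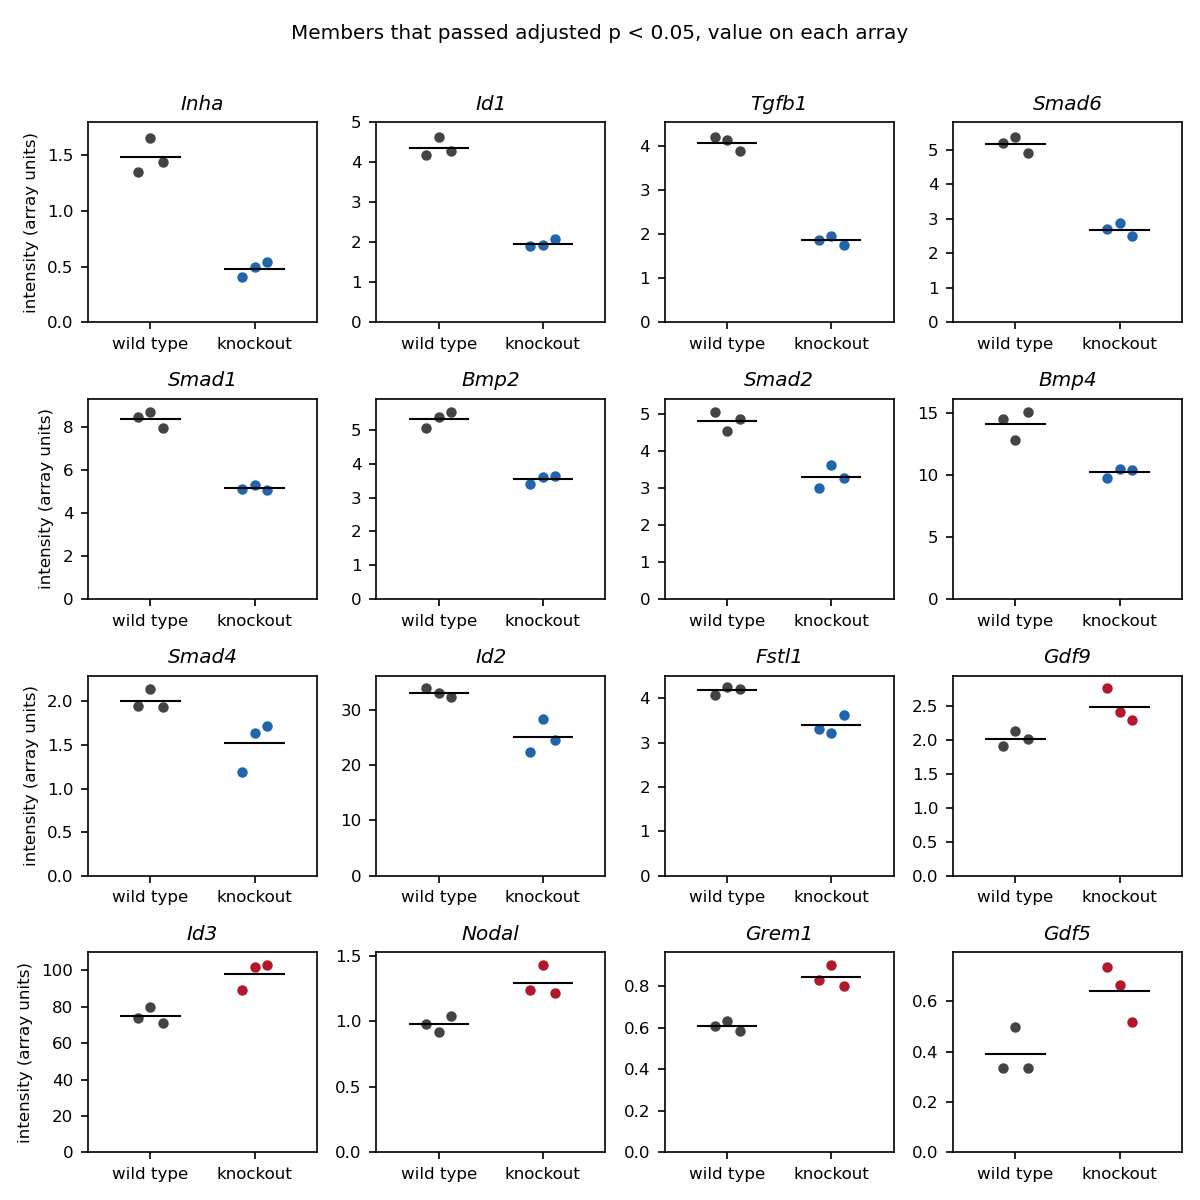
Deposited intensity (linear array units, axis from 0) of the 16 member genes that passed, with 1 point per array, 3 arrays per genotype and a line at each mean. Panels run from the largest decrease, Inha, to the largest increase, Gdf5. The 16 genes were chosen by passing on these same arrays, so that the genotypes are separate in each panel adds nothing. The same held at 52.8% of all tested probes.

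**Figure D2:**
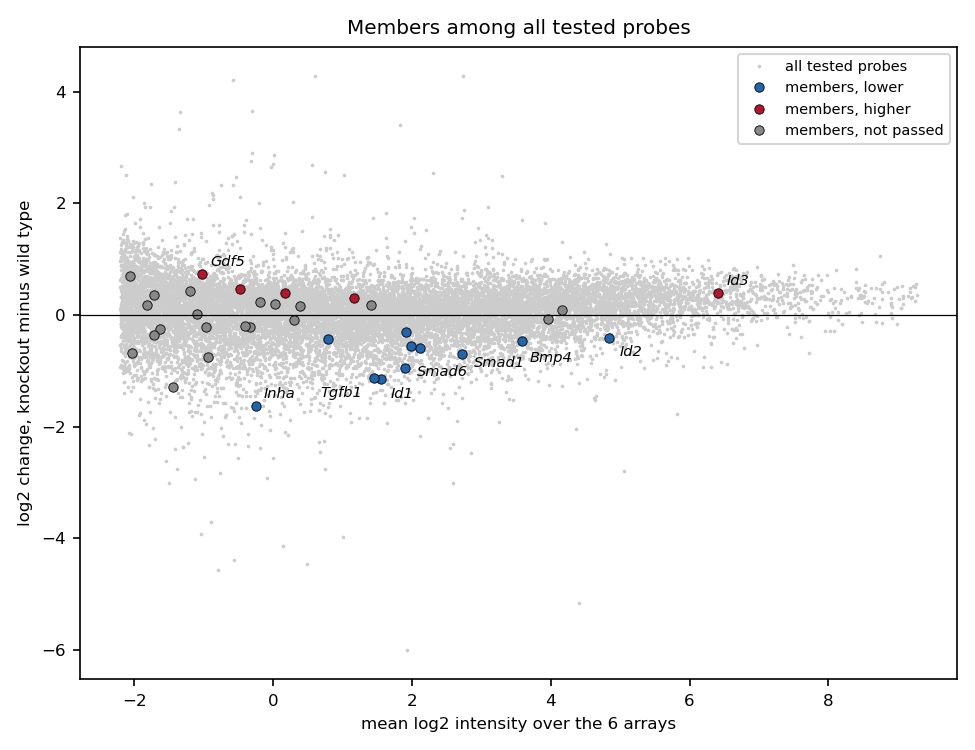
Log2 change (knockout minus wild type) against mean log2 intensity over the 6 arrays, with all 15062 tested probes in grey and the 36 tested member probes coloured by call. Inha is the lowest member at -1.63, and Id3 is the brightest member, in a range where the grey cloud itself lies above 0.

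To show the sequence in front of genes that fell together, the 250 bases before the start of the 4 largest decreases held in the promoter table are given here. The table, from RefSeq on build GRCm38.p6, holds 27 of the 39 member genes. Id1 and Bmp2 are not among the 27. Each line reads 5′ to 3′ on the strand of the gene, and capitals mark motif matches. The windows are chr1:75507359-75507608 (plus strand) for Inha, chr7:25686752-25687001 (plus) for Tgfb1, chr9:64022060-64022309 (minus) for Smad6 and chr8:79399429-79399678 (minus) for Smad1. For Inha and Smad6 the start used by the table is not the outermost start of the gene.
Inha: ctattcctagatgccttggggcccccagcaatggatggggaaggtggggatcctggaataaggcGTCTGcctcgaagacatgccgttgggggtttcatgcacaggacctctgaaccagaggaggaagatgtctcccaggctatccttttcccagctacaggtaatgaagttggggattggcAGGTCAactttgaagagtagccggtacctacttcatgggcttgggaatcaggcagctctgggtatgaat
Tgfb1: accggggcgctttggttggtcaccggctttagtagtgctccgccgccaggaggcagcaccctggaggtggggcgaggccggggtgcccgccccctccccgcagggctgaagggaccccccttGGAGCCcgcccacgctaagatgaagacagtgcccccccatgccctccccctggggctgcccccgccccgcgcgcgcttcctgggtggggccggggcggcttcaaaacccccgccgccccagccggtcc
Smad6: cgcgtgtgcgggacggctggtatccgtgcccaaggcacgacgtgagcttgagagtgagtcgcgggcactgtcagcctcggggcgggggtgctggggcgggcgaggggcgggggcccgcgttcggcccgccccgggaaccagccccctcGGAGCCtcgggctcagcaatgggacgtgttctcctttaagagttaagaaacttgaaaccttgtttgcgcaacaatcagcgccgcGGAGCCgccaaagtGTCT
Smad1: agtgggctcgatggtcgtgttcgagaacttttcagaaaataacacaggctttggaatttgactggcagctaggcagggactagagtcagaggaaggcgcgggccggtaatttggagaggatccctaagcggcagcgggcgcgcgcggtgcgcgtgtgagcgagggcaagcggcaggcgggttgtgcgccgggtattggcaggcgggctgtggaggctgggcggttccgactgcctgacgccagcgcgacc

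Motifs were chosen after the changes were known, and searched on both strands over the whole window of 300 bases, of which the last 50 follow the start. They were the Smad palindrome GTCTAGAC, the Smad box CAGAC, the GC-rich elements GGCGCC and GGAGCC linked with BMP response, the nuclear receptor half-site AGGTCA and the Wt1 and Egr site GCGGGGGCG. None of these overlaps another within the 4 windows. Smad6 held GTCTAGAC from base 4 before to base 4 after the start, so the capitals GTCT that end its line are the first bases of that match. This palindrome was in 0.213% of the 32851 windows in the table. Smad6 also held GGAGCC at bases 102 to 97 and 18 to 13 before the start, and Tgfb1 held it at bases 128 to 123, a motif present in 30.8% of all windows. Inha had AGGTCA at bases 69 to 64 (16.3% of all windows) and GTCTG, the reverse complement of CAGAC, at bases 186 to 182 (49.6%). Smad1 held none of the 6 motifs, and neither GGCGCC (11.9% of all windows) nor GCGGGGGCG (2.91%) was in any of the 4. A match describes the letters only, and an absent one says nothing of binding.

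Among the BMP and GDF ligands, Bmp2 and Bmp4, both of them activators of the Smad1, Smad5 and Smad9 branch, were lower in the knockout, and Gdf5 and Gdf9 were higher. The other 10 of the 14 ligands did not pass. The 14.3% that passed in each direction stands beside 17.2% lower and 24.1% higher of all tested probes. With 14 genes these shares are coarse. Bmp2 read 5.07, 5.40 and 5.54 in wild type and 3.41, 3.61 and 3.64 in knockout. Every knockout array was below every wild-type array, and the mean went from 5.33 ± 0.243 to 3.55 ± 0.122 (SD, n = 3 each). On the log2 scale this was -0.59 ± 0.08 (SE, adjusted p = 1.10e-04). A second, dim Bmp2 probe had the same sign at -1.28 ± 0.53 without passing (adjusted p = 0.0703), with knockout array 1 at 0.0586 and the other knockout arrays at 0.354 and 0.454.

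Bmp4, which is needed for mesoderm, germ cells and the ureteric bud, was among the brighter member signals. It read 14.5, 12.8 and 15.1 in wild type and 9.76, 10.5 and 10.4 in knockout, again with no overlap. The change was 1.38-fold, -0.46 ± 0.08 on the log2 scale (adjusted p = 7.38e-04). Bmp7, a ligand of the nephrogenic mesenchyme, gave 2.51 ± 0.0885 and 2.84 ± 0.331 (SD, n = 3 each) and did not pass (0.17 ± 0.10, adjusted p = 0.185). The 95% interval of its log2 change ran from -0.04 to 0.39, which does not include the decrease of Bmp2 or Bmp4.

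Gdf5, a joint and limb ligand, was the only member to pass with an increase of 1.5-fold or more. It read 0.335, 0.496 and 0.335 in wild type and 0.736, 0.664 and 0.518 in knockout. The groups were separate by a small margin, and the log2 change was 0.73 ± 0.24 (SE, adjusted p = 0.0289). This call ended without wild-type array 1 (adjusted p = 0.0977) or 3 (0.0996), without knockout array 1 (0.0738) or 2 (0.0674), and under cyclic loess normalization (0.0658). Gdf9, best known as an oocyte factor, read 1.91, 2.14 and 2.01 in wild type and 2.77, 2.42 and 2.29 in knockout (0.30 ± 0.10, adjusted p = 0.0289). Its call ended without wild-type array 1 (0.116) or 3 (0.0796) and without knockout array 1 (0.0575).

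None of the remaining ligands passed. Bmp3, an atypical BMP that opposes the others, gave 0.171, 0.188 and 0.207 in wild type and 0.261, 0.286 and 0.387 in knockout, and its log2 change of 0.71 ± 0.39 did not pass (adjusted p = 0.168). Bmp8a, at 0.43 ± 0.26, and Bmp8b, at 0.01 ± 0.27, are ligands known from germ cell induction and spermatogenesis. Bmp6 had a log2 change of -0.21 ± 0.21, with knockout array 3 at 0.499 beside 0.838 and 0.954 on the other knockout arrays. Gdf2, the endothelial ligand BMP9, was at 0.19 ± 0.12. Bmp10, the cardiac relative of Gdf2, was at -0.24 ± 0.37. Gdf10, which encodes BMP3B, was at -0.20 ± 0.16, and Gdf3, an embryonic ligand of the Nodal type, at 0.19 ± 0.51. Bmp15, an oocyte ligand, was at -0.35 ± 0.32 on its brighter probe, while its other probe was too dim to be tested. That dim probe went the other way, with 0.0674, 0.0688 and 0.122 in wild type and 0.155, 0.362 and 0.307 in knockout. For Gdf3, Bmp10 and Bmp3 the 95% intervals were wide (-0.92 to 1.30, -1.05 to 0.57 and -0.15 to 1.56), and for each a log2 change as large as that of Bmp2 lies inside the interval in at least 1 direction.

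The largest decrease of all members was in Inha, the alpha subunit that turns activin beta subunits into inhibin. Its intensity was 1.35, 1.65 and 1.44 in wild type and 0.403, 0.500 and 0.536 in knockout. The lowest wild-type array was well above the highest knockout array, and the change was 3.10-fold (log2 -1.63 ± 0.15, adjusted p = 1.05e-05). Across the array 101 of the 15062 tested probes, or 0.671%, fell by as much or more. Of the coelomic epithelium and gonad markers, 7 of 12 tested were also lower on these arrays, with values given above, and their part in the decrease of Inha was not tested. Inhba, one of the beta subunits with which Inha pairs, read 0.527, 0.542 and 0.579 in wild type and 0.398, 0.427 and 0.626 in knockout, overlapped and did not pass (-0.21 ± 0.22, adjusted p = 0.475). Inhbb, the other beta subunit, was too dim to be tested, its wild-type arrays reading 0.169 to 0.243 and its knockout arrays 0.0589 to 0.215.

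Of the 3 TGF-beta genes, only Tgfb1 passed. It read 4.21, 4.14 and 3.88 in wild type and 1.86, 1.96 and 1.75 in knockout. All knockout arrays were below all wild-type arrays, with a 2.20-fold change (log2 -1.14 ± 0.09, adjusted p = 2.20e-06) that 2.26% of all tested probes matched or exceeded as decreases. Tgfb2, a ligand of cardiac and urogenital development, gave 0.17 ± 0.12 (adjusted p = 0.285) with a 95% interval of -0.09 to 0.43. Tgfb3, known from palate fusion, gave -0.07 ± 0.12 (adjusted p = 0.684) with an interval of -0.33 to 0.20. Both intervals lie apart from that of Tgfb1, -1.32 to -0.95. In Tgfb3 knockout array 1, at 12.0, stood below the other knockout arrays at 17.6 and 16.5, and wild type ran from 15.2 to 16.4.

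Nodal, the ligand of germ layer and left-right patterning, was higher. It read 0.982, 0.919 and 1.04 in wild type and 1.24, 1.43 and 1.22 in knockout, without overlap (1.32-fold, log2 0.40 ± 0.12, adjusted p = 0.0170). The call ended without wild-type array 1 (adjusted p = 0.0517) or 2 (0.0750) and without knockout array 2 (0.0553). Lefty1, a secreted inhibitor of Nodal, was too dim to be tested, its wild-type arrays reading 0.0933 to 0.156 and its knockout arrays 0.0849 to 0.258.

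Of the 6 extracellular antagonists and other extracellular members, 2 were too dim to be tested. Of the rest, 1 was higher, 1 was lower and 2 did not pass, beside 17.2% lower and 24.1% higher of all tested probes. With so few genes the comparison is coarse. Grem1, which traps BMP2 and BMP4 and is required for ureteric bud outgrowth, read 0.610, 0.634 and 0.586 in wild type and 0.832, 0.902 and 0.801 in knockout. The groups were separate (1.38-fold, log2 0.47 ± 0.15, adjusted p = 0.0228), but the call ended without any one of the wild-type arrays (adjusted p = 0.0645, 0.0530 and 0.0701 without arrays 1, 2 and 3) and without knockout array 2 (0.0608). Fstl1, a follistatin-like glycoprotein that binds BMP4, went from 4.08, 4.25 and 4.21 to 3.32, 3.22 and 3.63 (1.23-fold lower, log2 -0.30 ± 0.08, adjusted p = 0.00994). Fstl3, which binds activin, did not pass (-0.08 ± 0.11, adjusted p = 0.599). Bmp1, the protease that cleaves chordin and procollagen, gave 17.3 ± 1.40 and 18.5 ± 1.39 (SD, n = 3 each; log2 0.10 ± 0.08, adjusted p = 0.392). Chrd, the chordin gene itself, was too dim to be tested.

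In the Smad and kinase group, 4 of the 7 tested genes were lower and none was higher, beside 17.2% lower and 24.1% higher over all tested probes. With 7 genes these shares are coarse. The 4 lower genes cover the BMP branch (Smad1), the TGF-beta and activin branch (Smad2), the shared partner (Smad4) and the inhibitory Smad6. Smad1 read 8.49, 8.70 and 7.97 in wild type and 5.11, 5.33 and 5.06 in knockout, with a 1.62-fold decrease (log2 -0.70 ± 0.07, adjusted p = 2.27e-05). Smad6 read 5.20, 5.39 and 4.90 in wild type and 2.71, 2.87 and 2.49 in knockout, with a 1.92-fold decrease (log2 -0.94 ± 0.09, adjusted p = 7.45e-06). For both genes the knockout arrays sat close together and far below the wild-type arrays, and 7.88% and 3.91% of all tested probes fell by as much or more. Smad6 is also expressed in endothelium, whose markers are given above, and their part in its decrease was not tested.

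Smad2 went from 5.05, 4.53 and 4.86 to 3.0, 3.61 and 3.28, a 1.46-fold decrease (log2 -0.55 ± 0.09, adjusted p = 5.04e-04). Smad4 went from 1.95, 2.14 and 1.94 to 1.19, 1.64 and 1.72, and knockout array 1 was the lowest. Its log2 change was -0.42 ± 0.13 (adjusted p = 0.0250), and the call ended without wild-type array 1 (adjusted p = 0.0558), 2 (0.101) or 3 (0.0633) and under quantile normalization (0.0620). Smad5, a BMP-branch Smad like Smad1 and Smad9, was dim and scattered, with 0.424, 0.179 and 0.386 in wild type and 0.269, 0.323 and 0.0294 in knockout (-0.68 ± 0.57, adjusted p = 0.362). Smad9 gave 0.24 ± 0.17 (adjusted p = 0.265), with knockout array 3 at 0.745 below the others at 1.04 and 1.12. Without that array it passed as higher (0.42 ± 0.14, adjusted p = 0.0371). Smad3 was too dim to be tested, its wild-type arrays reading 0.0776 to 0.228 and its knockout arrays 0.0733 to 0.151. Bmp2k, a kinase gene induced by BMP2, did not pass (0.36 ± 0.31, adjusted p = 0.385).

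**Figure D3:**
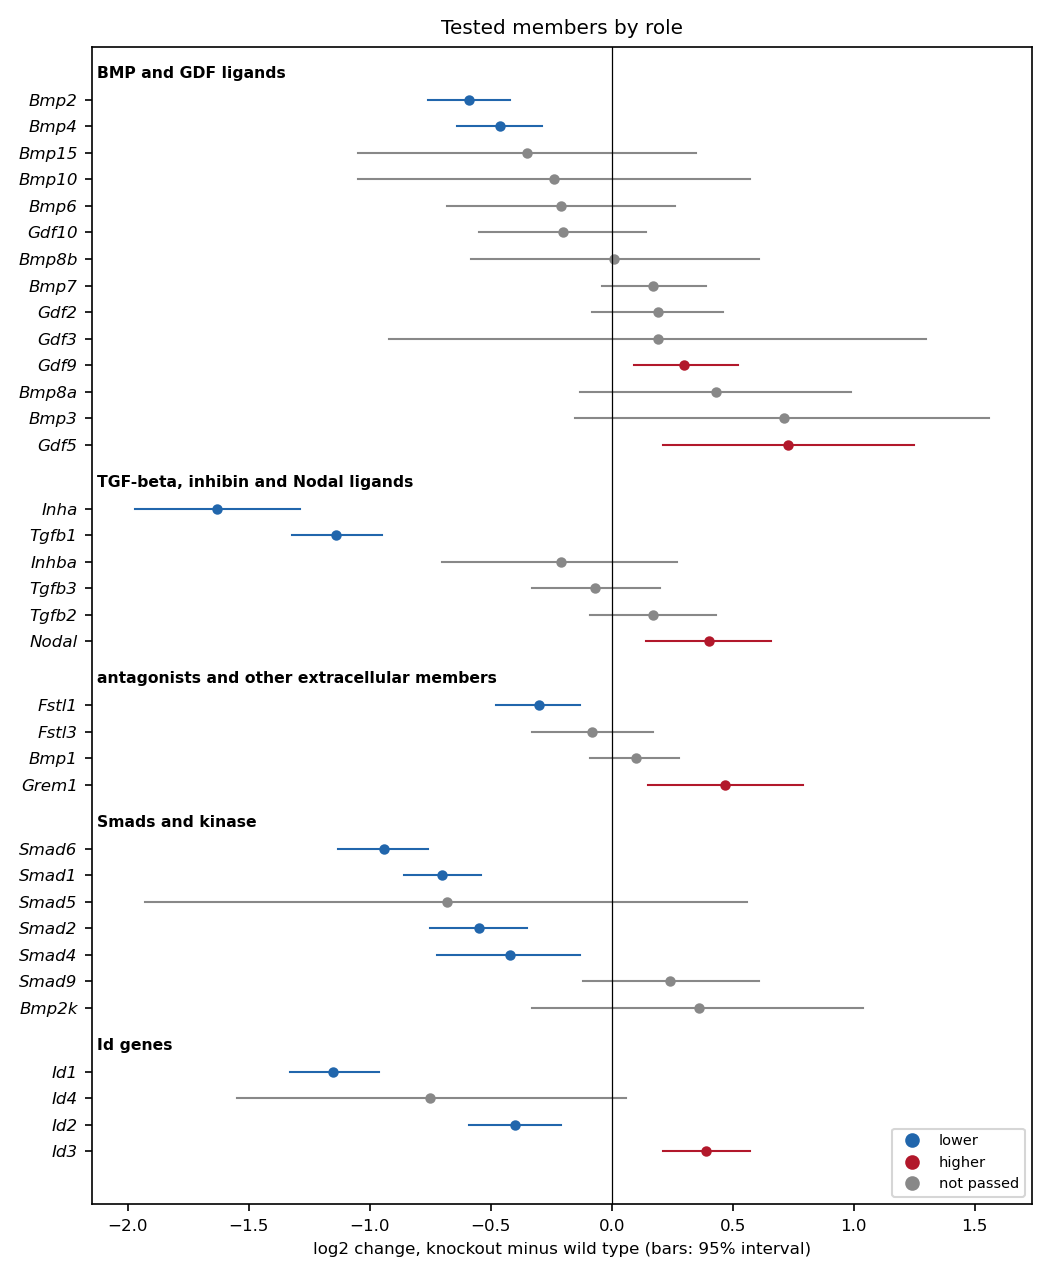
Log2 change (knockout minus wild type) of the 35 tested member genes by role, with 95% intervals from limma; blue passed as lower, red as higher and grey did not pass. The Smad group holds 4 blue and no red points, while the Id group holds both, with Id1 at -1.15 and Id3 at 0.39.

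The Id genes encode inhibitors of basic helix-loop-helix transcription factors, and they did not move together. Id1 read 4.18, 4.63 and 4.27 in wild type and 1.90, 1.93 and 2.07 in knockout. No arrays overlapped, and the decrease was 2.22-fold (log2 -1.15 ± 0.08, adjusted p = 1.83e-06). Id2 went from 33.9, 33.1 and 32.3 to 22.4, 28.3 and 24.6, a 1.32-fold decrease without overlap (log2 -0.40 ± 0.09, adjusted p = 0.00289).

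Id3 went the other way in the deposited values, from 73.8, 79.7 and 70.8 to 88.9, 102 and 103 (1.31-fold higher, log2 0.39 ± 0.08, adjusted p = 0.00280). It is a bright probe, and the brightest eighth of all tested probes had a median log2 change of 0.26. The Id3 call ended under quantile normalization, with 0.08 ± 0.06 (adjusted p = 0.371), and under cyclic loess, with 0.12 ± 0.06 (adjusted p = 0.167). Under these settings the changes of Id1 and Id2 still passed as lower. Id4 gave 0.808, 0.677 and 0.571 in wild type and 0.822, 0.326 and 0.246 in knockout and did not pass (-0.75 ± 0.37, adjusted p = 0.125). Knockout array 1 lay at the wild-type level, and without it Id4 passed as lower (-1.26 ± 0.26, adjusted p = 6.21e-04). It also passed with the replicate block (adjusted p = 0.0402).

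Of the 14 receptor genes of these ligands, listed with earlier results of these data known, 13 were on the array and 10 were tested. In the knockout 2 were lower and 2 higher, which became 3 lower and 1 higher under quantile or cyclic loess normalization. The 20.0% in each direction lies near the 17.2% lower and 24.1% higher of all tested probes. Amhr2, the type II receptor for anti-Müllerian hormone, fell to 0.480 ± 0.0575 from 30.6 ± 1.77 (SD, n = 3 each, adjusted p = 8.85e-12). It is also one of the gonad markers counted above. Acvr1, a type I receptor that serves BMPs and anti-Müllerian hormone, read 4.34, 4.29 and 4.45 in wild type and 2.38, 3.38 and 2.94 in knockout (-0.60 ± 0.11, adjusted p = 0.00134).

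Acvrl1, the endothelial type I receptor for BMP9 and BMP10, rose from 3.46, 3.27 and 3.16 to 4.15, 4.97 and 4.03 (0.41 ± 0.09, adjusted p = 0.00495). Acvr2b, a type II receptor for activins and Nodal, rose from 76.0, 78.7 and 88.3 to 99.6, 124 and 136 (0.56 ± 0.11, adjusted p = 0.00170). Like Id3 it is bright, and its call ended under quantile (0.26 ± 0.10, adjusted p = 0.0569) and cyclic loess normalization (0.27 ± 0.10, adjusted p = 0.0564). The 6 that did not pass were Tgfbr3 (-0.79 ± 0.32), Bmpr2 (-0.18 ± 0.28), Acvr1b (log2 change of 0.00 ± 0.11), Acvr2a (0.03 ± 0.20), Bmpr1b (0.07 ± 0.10) and Tgfbr2 (0.10 ± 0.10). Of these, Tgfbr3, the co-receptor betaglycan that binds inhibin and TGF-beta, passed as lower under quantile (adjusted p = 0.0313) and cyclic loess normalization (0.0282). Bmpr1a, Tgfbr1 and Acvr1c were too dim to be tested.

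A further 48 genes of the pathway were listed for their known roles, with earlier results of these data known. Of these, 37 were on the array and 34 were tested. In the knockout 10 (29.4%) were lower and 7 (20.6%) higher, beside 17.2% and 24.1% of all tested probes. The median log2 change was -0.11. The 6 largest changes included 5 decreases. Tgfbi, a matrix protein gene induced by TGF-beta, fell from 2.22, 2.64 and 2.44 to 0.590, 0.578 and 0.488 (-2.14 ± 0.12, adjusted p = 3.38e-07). Ltbp1, which holds latent TGF-beta in the matrix, fell from 1.77, 1.68 and 1.84 to 0.544, 0.393 and 0.421 (-1.97 ± 0.15, adjusted p = 2.39e-06). For both genes the arrays of the genotypes were far apart.

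Hey1, a transcriptional repressor gene that responds to BMP and Notch, fell from 3.47, 3.54 and 3.24 to 1.41, 1.42 and 1.36 (-1.29 ± 0.09, adjusted p = 9.76e-07). Fst, which encodes the activin antagonist follistatin, changed by -0.93 ± 0.11 (adjusted p = 3.99e-05). Msx1, a BMP-responsive homeobox gene, changed by -0.89 ± 0.09 (adjusted p = 1.26e-05). The 1 increase among the 6 was Mstn, the myostatin gene, at 0.264, 0.194 and 0.233 in wild type and 2.43, 3.11 and 3.12 in knockout (3.65 ± 0.17, adjusted p = 5.31e-08). It belongs to the muscle marker list, of which 8 of 11 tested genes were higher on these arrays, and the part of muscle tissue in its change was not tested.

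**Figure D4:**
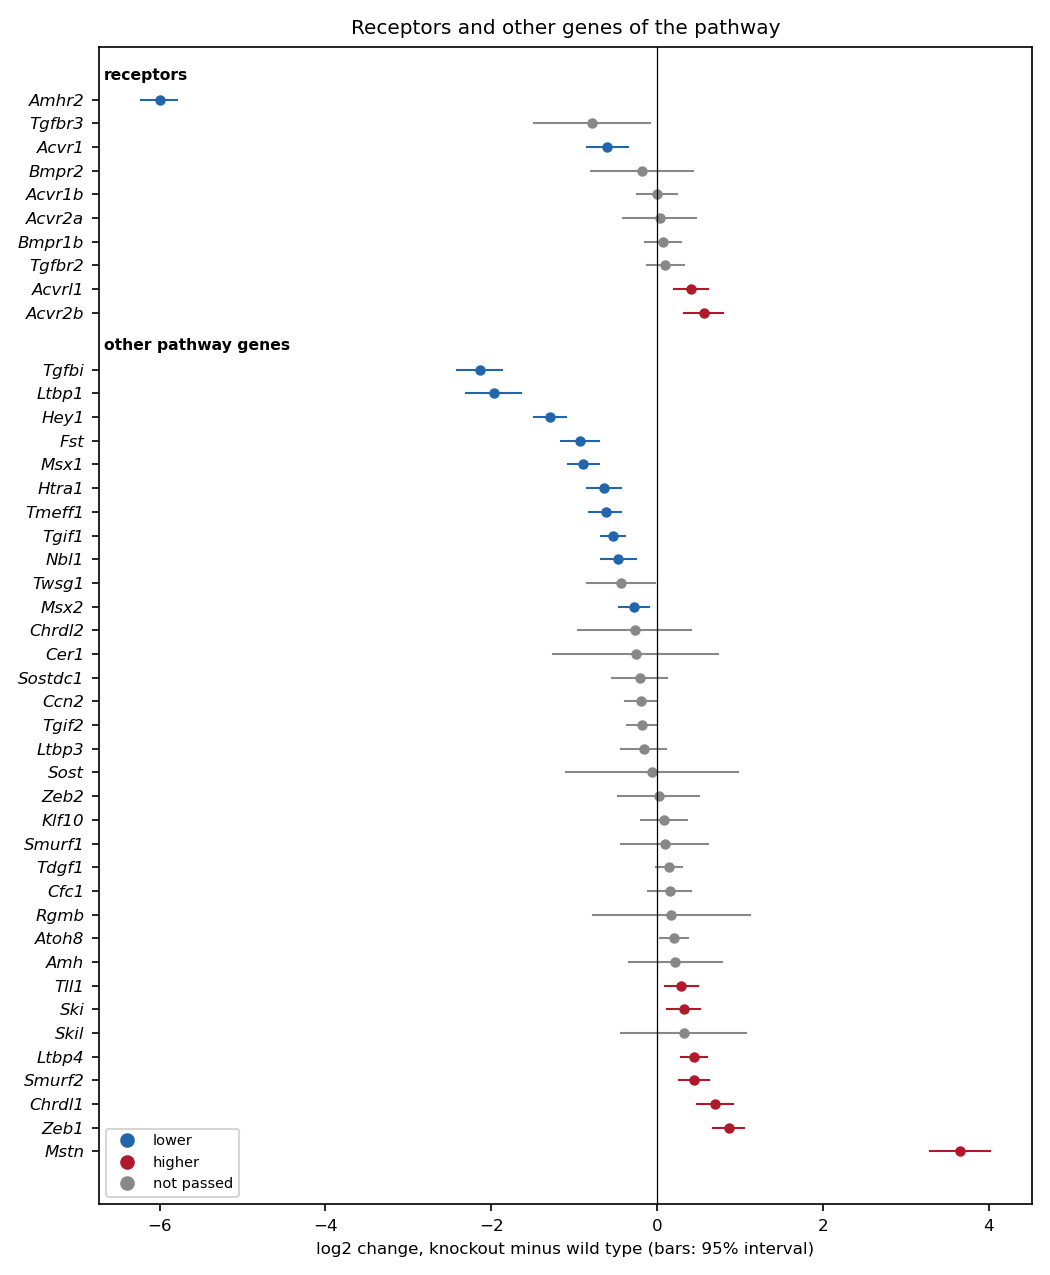
Log2 change (knockout minus wild type) of the 10 tested receptor genes and the 34 other tested genes of the pathway, with 95% intervals from limma, coloured by call. Amhr2 lies far to the left of the other receptors at -6.0, and Mstn is the only gene past 3 on the right.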

How the data were processed

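Biotin-labelled target made from the total RNA of the ridges was read on CodeLink single-colour mouse arrays, per the labels. The authors deposited 1 column of linear intensity per array. Its software, scaling, background correction and flags were not given in the sources used here. Each array had 153 to 246 values at or below 0 and 190 to 212 empty cells. Values under 0.0811, the 5th percentile of positive values, were raised to it and log2 was taken, with no further normalization. Probes with values on at least 2 arrays per genotype and a mean above the limit were fitted with limma 3.58.1 in R 4.3.3 (lmFit, eBayes with intensity trend, genotype as the only term). P-values are two-sided and Benjamini-Hochberg adjusted over all 15062 probes. Each mean ± SD was taken on unfloored intensities. Where a gene had several probes, the one with the highest mean and no empty cell stands for it.

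Gene names come from GEO's platform annotation, with 1 symbol for 15120 probes, several for 38 (not used) and 5131 probes unlisted. All member genes are named. Those that passed with a change of at least 1.5-fold are given on every array, all tested receptors are named, and of the other pathway genes the 6 largest changes that passed. The members and lists were chosen with earlier results of these data known. The fit was tested on simulated data with known changes before use. It recovered 44.0% of changes of size 0.5, 67.0% of size 1 and 88.0% of size 2, with 3 false calls. A gene that did not pass may therefore still have changed. Motifs for the promoter search were chosen after the values were seen. Alternatives covered normalization, floor, filter, variance trend, probe averaging, a replicate block and leaving out each array. The files hold no scan date or slide, so no batch was tested. The number of arrays limits the precision.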

Additional observations from a re-analysis of the deposited data

How the results depend on the processing

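Of the gene-level results, each repeated under up to 15 alternatives, 722 kept their side of the threshold, 26 lost the threshold and 7 gained it. None of those that passed changed sign. In 19 of the 722, from 8 genes that did not pass (Bmp1, Bmp6, Bmp8b, Gdf3, Tgfb3, Acvr2a, Bmpr1b and Bmpr2), the sign differed from the reported value; Acvr1b, with a log2 change of 0.00, was not counted. Bmp2, Bmp4, Tgfb1, Inha, Fstl1, Smad1, Smad2, Smad6, Id1 and Id2 passed as lower under every alternative in which they were tested. The 11 member genes lower in the knockout ranged from 10 to 12 over all alternatives, beside 12.1% to 21.7% of all tested probes. The 5 higher ones were 3 under cyclic loess normalization, beside 19.7% of all tested probes. They were also 3 with only probes above the median of probe means, beside 33.5%. Under that filter Gdf5 and Grem1 were too dim to be tested, and Gdf9, Nodal and Id3 still passed. Leaving out single arrays gave 1 higher gene without wild-type array 1, and 2 without wild-type array 3 or knockout array 2. It gave 3 without wild-type array 2 or knockout array 1, and 6 without knockout array 3. Of all tested probes 18.9%, 18.7% and 18.9% were higher without wild-type arrays 1, 2 and 3. Without knockout arrays 1, 2 and 3 the share was 28.2%, 21.2% and 20.5%. The median log2 change of the members lay between -0.22 and -0.07 when single arrays were left out. Receptors higher in the knockout numbered 1 in place of 2 under quantile normalization and 1 under cyclic loess. Of all tested probes 20.2% and 19.7% were higher under these settings. Beyond the calls given with the genes above, Bmp3 passed as higher without the intensity trend (adjusted p = 0.0216), as did Tgfbr3 as lower (0.0180), while Gdf9 (0.0585) and Smad4 (0.0773) did not, and Grem1 did not without the filter on dim probes (0.0509). The cause of these changed calls was not tested. With the replicate number as a block, 12 member genes were lower and 5 higher, and the added one was Id4. Of all tested probes 17.0% were then lower and 22.9% higher. The same-numbered arrays of the genotypes did not deviate together (r = 0.00, -0.02 and -0.01 across probes). With no scan date or slide given, these correlations cannot tell whether arrays of the same number were processed together. Members near an intensity of 0.217, such as Smad5, Gdf3 and Bmp10, had standard errors of 0.37 to 0.57 on the log2 scale, which limits what could be detected for them.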
